A study of Bos taurus with 8 samples.

Results

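The loci described here are transcribed stretches of the cattle genome that carry no Ensembl or RefSeq identifier and whose best protein match is a piece of a mobile element. They were chosen from the authors' assembled transcripts by name alone. A locus was taken when its identifier began with BGI_novel and the title of its best match held reverse transcriptase, transposon, retrotransposable, LINE-1, ORF2, gag, pol or a word with retrovir. This gave 605 loci out of 5052 unannotated loci and 21258 features in all. The rule itself used no expression value, although it was set with earlier results of these data known.

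Holstein embryos were collected at the eight-cell stage in pools of 8 and their RNA was sequenced, giving 3 libraries from embryos made by in vitro fertilisation (IVF), 3 from embryos made by somatic cell nuclear transfer (SCNT), in which the nucleus of a body cell replaces that of the egg, and 2 from SCNT embryos that overexpressed KDM4E (KDM4E-SCNT). KDM4E is an enzyme that strips methyl marks off histone H3 at lysine 9. SCNT embryos without added KDM4E are the control of the design, and the labels used here do not give the donor cell, the hours after fertilisation or activation, the means of overexpression, or whether the pools were collected independently. The spread on which each p-value rests is thus that between libraries, and it may be technical.

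Retrotransposons move by way of an RNA that a reverse transcriptase copies back into DNA. Endogenous retroviruses are retroviral copies that were inherited in the germ line, and they carry Gag, which forms the particle, Pol, which holds the reverse transcriptase, and Env, the surface protein. LINE elements have no Env, and their second reading frame, ORF2, codes for an endonuclease and a reverse transcriptase. Cells hold such elements silent with methylated DNA and with methylated lysine 9 of histone H3, and mammalian embryos are known to transcribe many of them for a time when their own genome becomes active.

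By the title of the best match the 605 loci fell into 8 families. The largest held 322 loci that matched a reverse transcriptase-like protein of cattle. A further 100 matched the Env polyprotein of endogenous retrovirus group PABLB member 1 (ERV PABLB Env), and 94 matched a reverse transcriptase filed under the whipworm Trichuris suis. The smaller families were 25 loci matching transposon proteins, 24 matching an RNA-directed DNA polymerase filed under the roundworm Haemonchus contortus, 20 matching other endogenous retroviruses, a Gag protein or the Pol of the R2 element (called other retroviral here), 15 matching an endonuclease with reverse transcriptase, and 5 matching LINE-1 or ORF2, of which 3 bear the title Retrovirus-related Pol polyprotein LINE-1. The organism in a title is that of the matched protein, not the source of the RNA. The files give the title alone, with no length or identity of the match, so a locus can be a fragment of an element.

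Levels are in FPKM, fragment numbers scaled to transcript length and to library size, so the depth behind them is unknown. Differences are between group means of log2(FPKM + 1), which understates the change of low loci. A feature was tested when at least 2 of the 8 libraries reached 1 FPKM, which 450 of the 605 loci and 14839 of all features did, and it was called at an adjusted p under 0.05 (limma, Benjamini-Hochberg over all features tested). Because the test keeps loci that are high in only 1 group, counts are also given over every locus. Copies of a repeat share sequence and some loci overlap, so reads may have been divided between near-identical copies in a way these values do not show. The files give no strand.

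The libraries held 10975 to 13050 features at 1 FPKM or more, and mitochondrial transcripts took 6.08% to 7.1% of FPKM in IVF, 7.54% to 10.6% in SCNT and 11.0% to 11.5% in KDM4E-SCNT. No row carries the symbol KDM4E. LOC524768, described as similar to lysine demethylase 4C, stood at 25.44 to 33.93 FPKM in SCNT, 101.85 and 206.44 in KDM4E-SCNT and 88.34 to 109.12 in IVF. The 8 oocyte and early embryo markers examined were called higher in IVF than in SCNT, 8 of 8, with summed levels of 12730 to 16694 against 1157 to 3813 FPKM, and KDM4E-SCNT had 9140 and 11815. The 12 fibroblast markers summed to 24.0 to 48.0 FPKM in IVF, 100 to 170 in SCNT, and 85.2 and 347.0 in KDM4E-SCNT replicates 1 and 2, with TAGLN listed at 0 in every IVF library and THY1 in every SCNT library. The 8 cumulus and granulosa markers found summed to 102.0 to 163.0, 16.8 to 25.5, and 45.9 and 99.7 FPKM in the same order, with FSHR and PTX3 listed at 0 throughout SCNT. Of 10 fibroblast markers tested 4 were lower in IVF than in SCNT, 1 higher and 5 not called. Of 4 cumulus and granulosa markers tested 3 were higher in IVF and 1, TNFAIP6, lower. Of all features tested 34.9% were higher in IVF and 23.6% lower. The part of these differences in the results below was not tested, apart from the values set beside them.

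Most loci were transcribed at low levels. The median over loci of the mean of all 8 libraries was 1.37 FPKM, against 1.12 for the other 4447 unannotated loci and 2.99 for features with an Ensembl or RefSeq identifier. A mean of 10 FPKM was reached by 41 of the 605. Over these loci the rank correlation between libraries was 0.787 to 0.837 within SCNT, 0.663 to 0.766 within IVF and 0.638 between the KDM4E-SCNT pair, whereas IVF and SCNT libraries correlated at 0.291 to 0.495. KDM4E-SCNT libraries correlated with SCNT at 0.583 to 0.658 and with IVF at 0.436 to 0.685. These coefficients are across loci, which are not independent replicates.

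The loci lay almost wholly outside annotated genes, which the choice of loci without an Ensembl or RefSeq identifier favours. So did the other 4447 unannotated loci, of which 36 (0.81%) overlapped an annotated row. Of the 605, 3 (0.496%) overlapped an annotated row of the files, 3 sat on sequences that carry no annotated row, and the other 599 lay apart. G000634 lies inside TSC1, G001066 inside DCSTAMP, and G005125 runs into LUZP2. (Identifiers are given here without their shared prefix BGI_novel.) The median distance to the nearest annotated row was 51131 bp, with 74 loci within 5 kb and 221 beyond 100 kb. For the other unannotated loci the median was 45069 bp. Without exon structures in the files, exonic and intronic position was not assigned, and coordinates below are those of the files on the UMD3.1 build.

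Families differed in where they lay. Of the ERV PABLB Env loci 5.0% were within 5 kb of an annotated row, and of the whipworm-matched loci 1.06%, compared with 15.2% of the cattle reverse transcriptase-like loci and 15.5% of the other unannotated loci. The 5 LINE-1 and ORF2 loci all lay beyond 100 kb. Chromosome X held 13 of the 100 ERV PABLB Env loci and 35 of all 605 (5.79%), against 7.85% of the other unannotated loci. Loci also lay in groups, with 146 overlapping another of the 605, so that the 605 made up 513 separate places and the 100 ERV PABLB Env loci 69. No test was made on these shares.

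The span of a locus, from its first to its last coordinate, ranged from 268 to 1088444 bp with a median of 2355 bp. The longest was G003941 (chrX:76981525-78069968, whipworm match), followed by G005125 (chr29:20518718-21605271, RNA-directed DNA polymerase match, 1086554 bp). G003941 read 7.06, 8.31 and 3.32 FPKM in IVF, 7.4, 4.59 and 7.1 in SCNT, and 2.58 and 5.85 in KDM4E-SCNT. All 3 groups overlapped, with an IVF minus SCNT difference of -0.08 (SE 0.4, adjusted p = 0.876). G005125 read 0.29, 1.52 and 1.48 in IVF, 0.91, 0.91 and 0.45 in SCNT, and 7.31 and 0.76 in KDM4E-SCNT. KDM4E-SCNT replicate 1 stood above every other library, and replicate 2 lay within the values of both other groups. The identifiers of both loci sit out of coordinate order, among those of other chromosomes, and whether such spans are true or errors of assembly was not tested.

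Between IVF and SCNT most tested loci of the ERV PABLB Env and other retroviral families were lower in IVF, while the remaining families moved in both directions. Over all features 58.5% of those tested were called, 34.9% higher in IVF and 23.6% lower. Of the other unannotated loci tested 28.1% were higher and 18.6% lower. Among the 450 loci tested, 59 (13.1%) were higher in IVF, 123 (27.3%) lower and 268 not called. Without SCNT replicate 1 the count higher fell to 37. Over all 605, the IVF libraries lay wholly above the SCNT libraries at 86 loci and wholly below at 154, that is 14.2% and 25.5%, against 29.5% and 19.5% of all features. Tested with no filter, 49 of the 605 were higher and 116 lower, where 22.9% and 15.7% of all features were. The median difference over the 605 was -0.06, beside 0.13 over all features.

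That balance moved with scaling. Of the called loci 67.6% were lower in IVF, and this share was 78.3% with 43 higher and 155 lower after median-ratio scaling, and 80.0% after quantile normalization. It fell to 62.6% with mitochondrial genes removed. Over all features the share of calls that were lower was 40.3% as deposited. That share was 51.1% after median-ratio scaling, 47.3% after quantile normalization and 36.3% with mitochondrial genes removed. Median-ratio scaling lowered the median of all features tested from 0.39 to 0.1, so every difference here can be read against that shift. The direction for ERV PABLB Env held under each of the 4 scalings tried, with a median over tested loci from -2.03 to -2.16 and -1.92 as deposited.

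**Figure D1:**
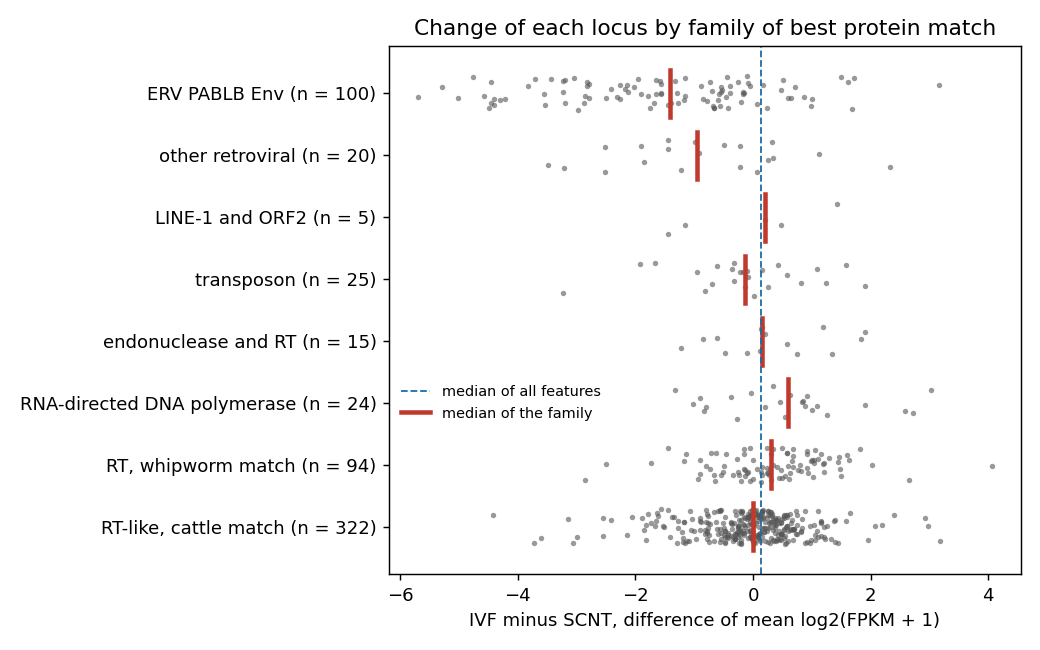
Each point is 1 of the 605 loci, placed by its difference in mean log2(FPKM + 1) between IVF (n = 3) and SCNT (n = 3), with families of best protein match on the vertical axis, red bars at family medians and a dashed line at the median of all features (0.13). The ERV PABLB Env median lies at -1.42 and that of the other retroviral loci at -0.95, while the cattle reverse transcriptase-like median lies at 0.0.

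Most ERV PABLB Env loci that were tested were lower in IVF. Of 100 loci 78 were tested, and 54 (69.2%) were lower in IVF than in SCNT, 6 (7.69%) higher and 18 not called. Of all features tested 23.6% were lower and 34.9% higher. Over all 100, the mean of IVF was lower at 84, beside 8342 of all 21258 features. The IVF libraries lay wholly below the SCNT libraries at 60 and wholly above at 7, beside 19.5% and 29.5% of all features. Summed over the family, IVF libraries held 115, 82.8 and 123 FPKM, SCNT libraries 1403, 807 and 1106, and KDM4E-SCNT libraries 558 and 256. The 3 groups did not overlap in this sum, which was 10.3 times as high in SCNT as in IVF. In IVF 10 of the 100 loci were listed at 0 in all 3 libraries, and in SCNT 4. In KDM4E-SCNT 11 were listed at 0 in both of its 2 libraries.

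Across IVF and SCNT the summed fibroblast markers moved with the family's sum. They were 24.0 to 48.0 FPKM for the IVF libraries and 100 to 170 for those of SCNT. By gene the fibroblast list was split, with 4 of 10 tested lower in IVF, 1 (FN1) higher and 5 not called. Of all features tested 23.6% were lower and 34.9% higher. The oocyte and early embryo markers moved opposite to the family's sum. Within groups the order of libraries differed. SCNT replicate 2 had the highest fibroblast sum of its group, 170 FPKM, and the lowest ERV PABLB Env sum, 807. KDM4E-SCNT replicate 2 had 347.0 FPKM of fibroblast markers and 256 of ERV PABLB Env, against 85.2 and 558 in replicate 1. The part of these markers in the family's difference was not tested.

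**Figure D2:**
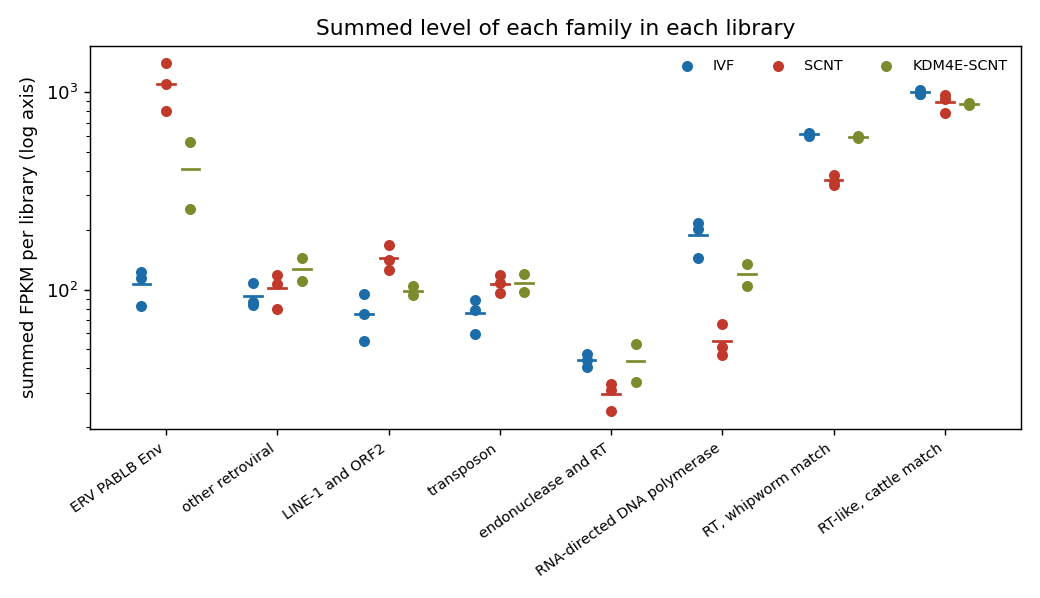
Points show the summed FPKM of each family in each of the 8 libraries on a log axis, with a bar at each group mean. ERV PABLB Env sums lie at 82.8 to 123 in IVF, 807 to 1403 in SCNT and 256 to 558 in KDM4E-SCNT, and the whipworm-matched and RNA-directed DNA polymerase sums are lowest in SCNT.

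The loci with the largest falls give the scale of the difference. G005043 (chrX:69820604-69828508) read 0.75, 0.28 and 1.26 FPKM in IVF, 104.53, 78.73 and 83.27 in SCNT, and 60.62 and 3.67 in KDM4E-SCNT. Every SCNT library stood above every other library, and the KDM4E-SCNT pair was far apart. The IVF minus SCNT difference was -5.7 (SE 0.7, adjusted p = 4.03e-05), and leaving out any 1 library kept it past the threshold.

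G002261 (chr20:40554681-40555638), a short locus of 958 bp, read 0.41, 0.35 and 0.7 in IVF, 67.71, 43.47 and 62.82 in SCNT, and 14.94 and 7.86 in KDM4E-SCNT. Its 3 groups were fully separated, with KDM4E-SCNT between the others. The difference was -5.29 (SE 0.34, adjusted p = 5.3e-07), and KDM4E-SCNT differed both from SCNT (-2.29, SE 0.38, adjusted p = 0.0016) and from IVF (3.01, SE 0.38, adjusted p = 0.000707).

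The same order held at G000953 (chr13:74740385-74744604), with 0.46, 0.4 and 0.96 FPKM in IVF, 46.68, 23.09 and 46.82 in SCNT, and 14.41 and 7.42 in KDM4E-SCNT. IVF was lower than SCNT by a difference of -4.58 (SE 0.38, adjusted p = 2.18e-06). The nearest annotated row, ENSBTAG00000018122.5 at 3551 bp, was listed at 0 in 7 of the 8 libraries.

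G004154 (chr7:22159459-22166407) had 0.32, 0.29 and 2.67 FPKM in IVF, 79.61, 39.2 and 63.09 in SCNT, and 45.77 and 8.57 in KDM4E-SCNT. SCNT and KDM4E-SCNT overlapped here, and only IVF stood apart, at -5.01 from SCNT (SE 0.57, adjusted p = 1.57e-05). G004541 (chr8:77399932-77405511) had 0.82, 0.31 and 0.78 in IVF, 56.48, 29.74 and 47.06 in SCNT, and 16.21 and 4.54 in KDM4E-SCNT, a difference of -4.76 (SE 0.43, adjusted p = 3.39e-06) with no overlap between groups.

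The most abundant ERV PABLB Env locus was G003989 (chr6:56559510-56560922), which also remained detectable in IVF. It read 9.6, 6.25 and 9.88 FPKM in IVF, 212.23, 97.12 and 112.57 in SCNT, and 61.03 and 24.97 in KDM4E-SCNT. All 3 groups were separated, and the IVF minus SCNT difference was -3.82 (SE 0.39, adjusted p = 8.26e-06).

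A few loci were listed at 0 throughout IVF. G000216 (chr1:129058733-129066663) was listed at 0 in all IVF libraries, at 33.85, 15.18 and 18.94 FPKM in SCNT, and at 3.16 and 2.01 in KDM4E-SCNT. G003074 (chr29:163945-165726) was listed at 0 in every IVF and KDM4E-SCNT library and at 24.51, 11.95 and 27.21 in SCNT. For such loci no fold change is given, and only the SCNT libraries of G003074 held any signal.

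Direction was not uniform across the family. The locus with the largest rise, G000161 (chr1:101612546-101676016), read 11.71, 16.67 and 14.12 FPKM in IVF, 1.05, 0.63 and 0.4 in SCNT, and 1.05 and 10.56 in KDM4E-SCNT, a difference of 3.17 (SE 0.52, adjusted p = 0.000229). Of the KDM4E-SCNT pair, replicate 1 sat at the top of the SCNT values and replicate 2 just under the IVF values. The other 5 loci called higher in IVF all lay on chromosome 18, a grouping seen after the values were known. That chromosome held 9 ERV PABLB Env loci, of which 7 were tested, 5 were higher and 0 lower by limma (0 lower at an unadjusted p under 0.05). Among them G001567 (chr18:286229-307848) read 6.3, 11.35 and 5.54 in IVF against 1.9, 3.78 and 0.18 in SCNT, and G001684 (chr18:58972231-58976324) 4.93, 3.84 and 8.16 against 0.86, 1.5 and 0.98. G001566 and G001567 overlap each other, as do G001681 and G001683, so the 5 loci stand for 3 places. On chromosome X, 11 of 13 were lower and 0 higher (0 higher at an unadjusted p under 0.05). Beside both chromosomes stand 34.9% higher and 23.6% lower of all features tested.

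Titles within the family gave like pictures of unequal depth. Of the 45 loci matching a bison protein, 36 were tested and 31 were lower in IVF, with a median difference over the 45 of -2.02. For isoform X1 of cattle 16 of 26 tested were lower (median -1.18 over 31 loci), for isoform X2 of cattle 4 of 10 (-0.62 over 14), and for the sheep protein 3 of 6 (-0.36 over 10). Of all features tested 23.6% were lower.

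**Figure D3:**
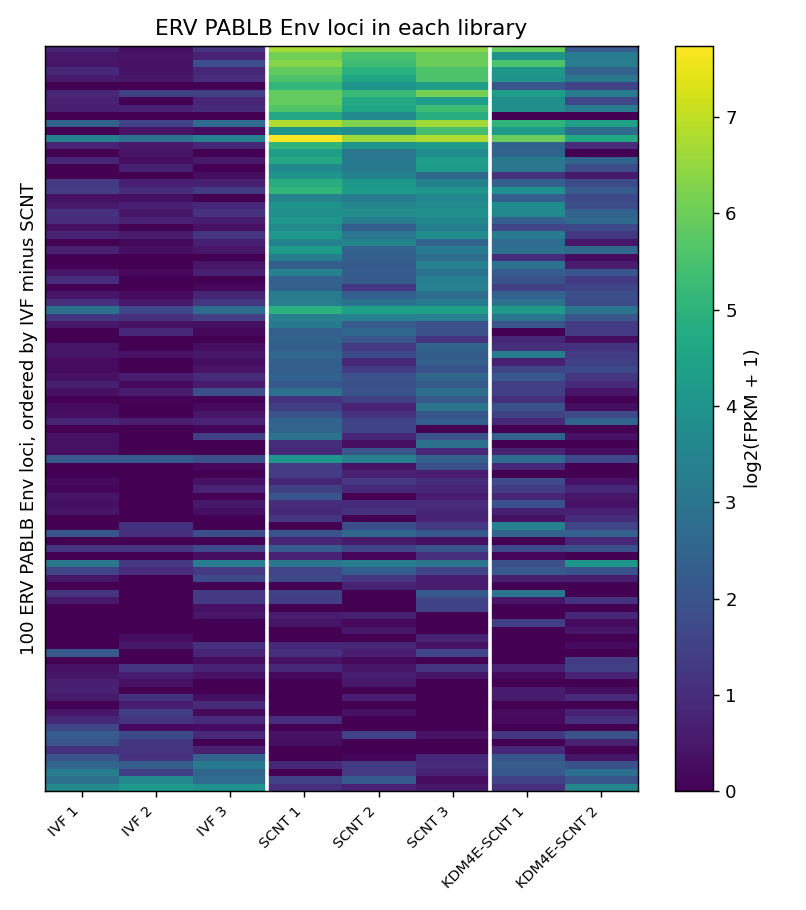
Rows are the 100 ERV PABLB Env loci ordered by their IVF minus SCNT difference, columns are the 8 libraries, and colour gives log2(FPKM + 1). Signal is strongest in the 3 SCNT columns, weaker in KDM4E-SCNT and weakest in IVF for the upper rows, and the lowest rows hold the few loci that were higher in IVF.

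Among the 20 other retroviral loci 15 were tested, with 10 (66.7%) lower in IVF than in SCNT, 2 (13.3%) higher and 3 not called. Of all features tested 23.6% were lower and 34.9% higher. The median over all 20 was -0.95. G002651 (chr24:7558673-7559773, an ERV-K Pol match) read 1.53, 0.98 and 1.76 FPKM in IVF, 25.89, 25.45 and 25.94 in SCNT, and 8.74 and 11.96 in KDM4E-SCNT. The SCNT values were nearly equal, and the groups did not overlap (-3.48, SE 0.31, adjusted p = 3.11e-06). In the other direction, G005063 (chrX:80633676-80635951, an ERV-K Env match) read 94.01, 71.48 and 67.43 in IVF, 8.09, 16.06 and 22.76 in SCNT, and 46.86 and 75.2 in KDM4E-SCNT (2.33, SE 0.37, adjusted p = 0.000172). This locus made up most of the family's summed FPKM in IVF, which ran from 83.6 to 108.0. Both were picked after their values were seen.

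R2 is a retrotransposon without long terminal repeats, and 1 locus matched its Pol. G002712 (chr24:43970719-43973701) read 1.52, 2.68 and 2.31 FPKM in IVF, 6.81, 4.1 and 4.21 in SCNT, and 2.92 and 3.1 in KDM4E-SCNT. IVF and SCNT did not overlap, and the difference was -0.92 (SE 0.34, adjusted p = 0.0337). The call was lost without IVF replicate 1 or 3, without SCNT replicate 1 or 3, and with mitochondrial genes removed, with adjusted p from 0.00679 to 0.143 over all alternatives.

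The other 485 loci, outside the ERV PABLB Env and other retroviral families, were called in both directions. Of 357 tested, 51 (14.3%) were higher in IVF, 59 (16.5%) lower and 247 not called. Both shares were below those of all features tested, 34.9% and 23.6%. Of the other 4447 unannotated loci 3164 were tested, and 28.1% of these were higher and 18.6% lower. The share lower was thus close to that of the other unannotated loci, and the share higher was below it. The median over the 485 was 0.07. Cattle reverse transcriptase-like loci were called higher at 21 (9.55%) and lower at 41 (18.6%) of 220 tested. Whipworm-matched loci were called higher at 16 (21.1%) and lower at 8 (10.5%) of 76. For the RNA-directed DNA polymerase matches these counts were 5 and 3 of 22 (22.7% and 13.6%), and for the endonuclease matches 4 and 1 of 12 (33.3% and 8.33%). Whipworm-matched loci summed to 598 to 622 FPKM in IVF, 338 to 380 in SCNT, and 588 and 598 in KDM4E-SCNT, and RNA-directed DNA polymerase matches to 144.0 to 218.0, 46.4 to 67.3, and 104.0 and 135.0. In both sums SCNT lay below the other groups without overlap. The whipworm-matched sum leaned on its most abundant locus, G003942. Without that locus KDM4E-SCNT replicate 1 had 318 FPKM and SCNT replicate 2 had 323, so those groups overlapped. IVF libraries then had 381 to 496 and SCNT libraries 281 to 323.

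The locus with the highest mean of all was G003836 (chr5:101846698-101853762), a cattle reverse transcriptase-like match 17311 bp from NANOG, a pluripotency factor gene. It read 440.54, 469.05 and 379.36 FPKM in IVF, 18.61, 134.88 and 39.03 in SCNT, and 206.68 and 169.11 in KDM4E-SCNT. The groups did not overlap, although SCNT replicate 2 stood well above the other 2 SCNT libraries. IVF exceeded SCNT by 3.18 (SE 0.52, adjusted p = 0.000218) and KDM4E-SCNT exceeded SCNT by 1.99 (SE 0.58, adjusted p = 0.02). With no filter on low values the call between KDM4E-SCNT and SCNT was lost (limma adjusted p = 0.0587). NANOG itself ran the other way, with 7.58, 1.86 and 3.09 in IVF, 107.4, 58.96 and 90.57 in SCNT, and 18.53 and 20.14 in KDM4E-SCNT (IVF minus SCNT -4.18, SE 0.4, adjusted p = 5.08e-06).

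G001597 (chr18:31429968-31448212, whipworm match) had the largest rise, with 130.7, 134.61 and 118.07 FPKM in IVF, 7.08, 10.12 and 4.12 in SCNT, and 48.84 and 122.5 in KDM4E-SCNT. KDM4E-SCNT replicate 2 lay within the IVF values, and every SCNT library lay below all others. The IVF minus SCNT difference was 4.06 (SE 0.38, adjusted p = 4.17e-06). G004664 (chr9:32310225-32320847, RNA-directed DNA polymerase match) read 103.22, 100.25 and 60.88 in IVF, 8.04, 15.76 and 6.93 in SCNT, and 42.45 and 59.74 in KDM4E-SCNT, a difference of 3.03 (SE 0.35, adjusted p = 1.98e-05). G002160 (chr2:104887065-104892356, cattle match) read 8.46, 5.63 and 9.03, then 0.3, 0.0 and 0.0, then 4.2 and 6.34, a difference of 2.97 (SE 0.35, adjusted p = 1.93e-05).

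G003942 (chr6:31669649-31671017, whipworm match) was abundant in all groups, at 240.72, 121.0 and 202.88 FPKM in IVF, 57.22, 31.63 and 70.95 in SCNT, and 270.48 and 92.67 in KDM4E-SCNT. SCNT lay below both other groups, which overlapped each other, and IVF minus SCNT was 1.82 (SE 0.43, adjusted p = 0.00278).

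The 4 loci whose values over the 8 libraries were most like those of G003836 on the log2(FPKM + 1) scale came from 3 other families. They were G004895 (Pearson r = 0.95, endonuclease match), G000123 (0.94, whipworm match), and G003512 and G004664 (0.93 each, RNA-directed DNA polymerase matches). They lie on chromosomes X, 1, 4 and 9. The 8 points share 3 groups, so this likeness largely repeats the group means.

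LINE-1 and ORF2 loci were few and did not move together. G003980 (chr6:52299568-52300409, LINE-1 match) read 35.26, 63.06 and 52.08 FPKM in IVF, 106.94, 99.11 and 126.83 in SCNT, and 67.77 and 74.82 in KDM4E-SCNT. Its groups were separated with KDM4E-SCNT between, and IVF minus SCNT was -1.16 (SE 0.29, adjusted p = 0.00382). Among the other 4, G000916 was lower in IVF (-1.44), G000604 higher (1.43) and 2 were not called, both named after their values were seen. Of 22 transposon matches tested, 4 were higher and 4 lower (18.2% each), beside 34.9% and 23.6% of all features tested. The most abundant, G005204 (chrX:137883162-137884161, TX1 match), read 15.28, 25.54 and 28.5 in IVF, 31.09, 26.52 and 27.71 in SCNT, and 22.63 and 39.16 in KDM4E-SCNT, with all groups overlapping (-0.33, SE 0.33, adjusted p = 0.398).

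**Figure D4:**
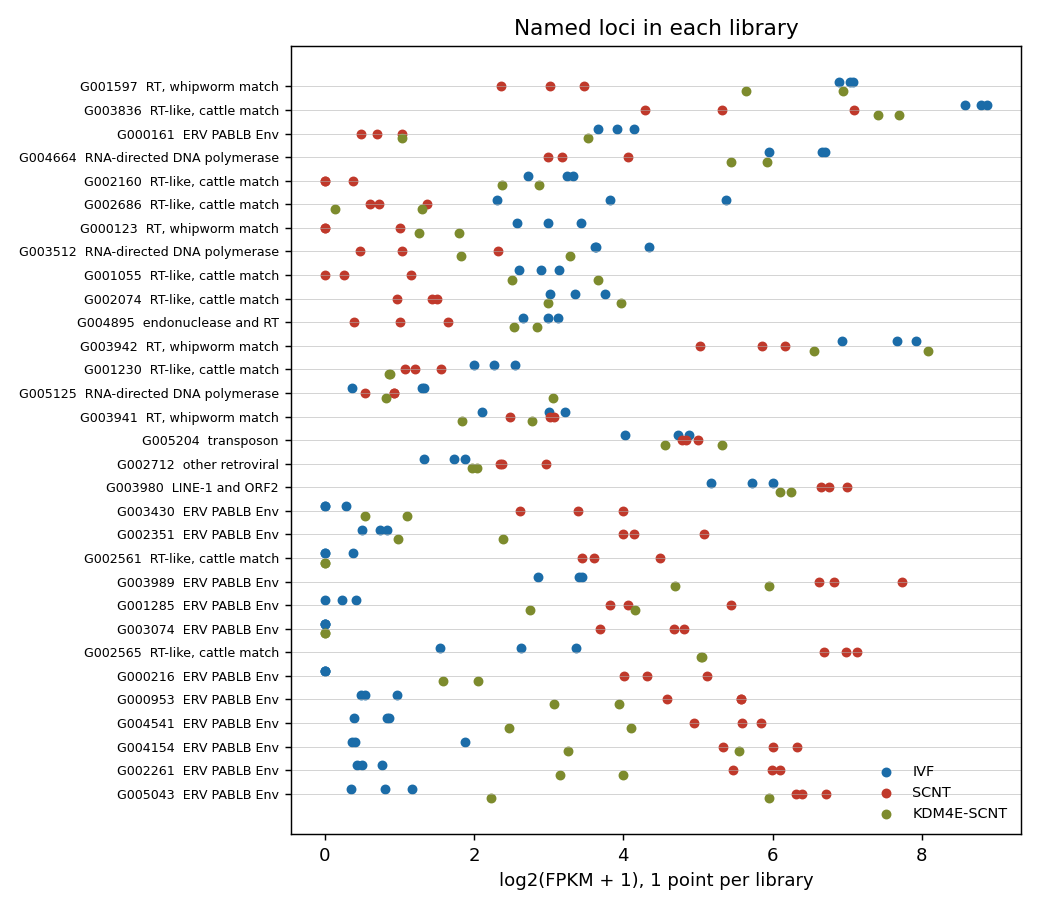
Each row is a named locus with its family, ordered by the IVF minus SCNT difference, and each point is 1 library on a log2(FPKM + 1) axis, coloured by group. In the lower rows, mostly ERV PABLB Env, SCNT points lie to the right of IVF points, and in the upper rows the order is turned, with most KDM4E-SCNT points between.

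The place with the most loci held 10 cattle reverse transcriptase-like loci on chromosome 23 between 9470365 and 9498259, and their values diverged. G002565 (chr23:9492253-9498259) read 5.18, 1.92 and 9.28 FPKM in IVF, 125.79, 102.33 and 138.53 in SCNT, and 32.09 and 31.98 in KDM4E-SCNT, a difference of -4.42 (SE 0.4, adjusted p = 3.45e-06). Its groups did not overlap. G002561, which ends at the same base, read 0.0, 0.3 and 0.0 in IVF, 9.9, 11.17 and 21.49 in SCNT, and was listed at 0 in both KDM4E-SCNT libraries. G002558, across the same stretch, read 6.85, 3.65 and 2.54, then 6.62, 2.95 and 0.0, then 9.14 and 5.83, with all groups overlapping. How reads were divided between these overlapping models is not given in the sources used here. FKBP5, 22995 bp away, ran opposite to G002565, with 24.49, 30.79 and 18.99 in IVF and 3.68, 6.3 and 4.72 in SCNT (2.12, SE 0.34, adjusted p = 0.00021).

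The comparison of KDM4E-SCNT with SCNT asks what changed when KDM4E was added to cloned embryos. ERV PABLB Env loci were again lower than in SCNT, at fewer loci than in IVF. Over all features tested 32.6% were called, 21.6% higher and 11.0% lower. Of the 450 loci tested, 28 (6.22%) were higher in KDM4E-SCNT, 42 (9.33%) lower and 380 not called. Without KDM4E-SCNT replicate 2 these counts were 17 and 13, and without SCNT replicate 1 the count higher was 15. Over all 605, the libraries lay wholly above at 95 and wholly below at 110, beside 30.4% and 16.1% of all features, where these loci had 15.7% and 18.2%. Tested with no filter, 18 of the 605 were higher and 35 lower, where 12.4% and 5.96% of all features were. The share of called loci that were lower was 60.0%. It was 83.5% after median-ratio scaling (15 higher, 76 lower) and 48.5% with mitochondrial genes removed (35 higher, 33 lower). Over all features the share of calls that were lower was 33.8%, 56.7% and 27.0% in the same order. The balance thus turned with scaling both for the 605 and for all features.

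Of the 78 ERV PABLB Env loci tested 24 (30.8%) were lower in KDM4E-SCNT, 1 (1.28%) higher and 53 not called. Of all features tested 11.0% were lower and 21.6% higher. The median over all 100 was -0.66. The libraries lay wholly below SCNT at 39 of 100 and wholly above at 3, beside 16.1% and 30.4% of all features. The count of 24 fell to 7 without KDM4E-SCNT replicate 2, to 15 without SCNT replicate 1 and to 14 with a pseudocount of 0.1. Summed FPKM was 2.71 times as high in SCNT as in KDM4E-SCNT. The 2 KDM4E-SCNT libraries differed, with replicate 1 higher at 59 of the 100 loci and lower at 29, whereas over all features replicate 1 was higher at 7517 and lower at 11462. Of the 60 loci where IVF lay wholly below SCNT, both KDM4E-SCNT libraries fell between the 2 groups at 29. Over all features this held at 1582 of 4137. Replicate 1 reached the SCNT range or above at 21 of the 60 and replicate 2 at 8. Over all features these counts were 975 and 641 of the 4137. This comparison and that of IVF with SCNT share the SCNT libraries, so their values are set side by side and not correlated.

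The largest falls after G003074 and G002561 included G002351 (chr21:27872249-27881062), an ERV PABLB Env locus with 32.74, 14.9 and 16.65 FPKM in SCNT, 4.25 and 0.97 in KDM4E-SCNT, and 0.67, 0.42 and 0.79 in IVF. It was separated in all 3 groups, and KDM4E-SCNT minus SCNT was -2.72 (SE 0.48, adjusted p = 0.00196). G000216 fell by 2.66 (SE 0.41, adjusted p = 0.00121). G003430 (chr3:113891782-113898584) read 14.97, 9.48 and 5.12 in SCNT, 1.14 and 0.46 in KDM4E-SCNT, and 0.0, 0.0 and 0.22 in IVF, with a KDM4E-SCNT minus SCNT difference of -2.51 (SE 0.45, adjusted p = 0.0021).

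The 5 largest rises in KDM4E-SCNT were all reverse transcriptase matches. The largest was again G001597, at 3.35 (SE 0.42, adjusted p = 0.000615), and G002160 and G004664 rose by 2.5 and 2.27. G001055 (chr14:56057190-56097788, cattle match) read 0.0, 1.24 and 0.2 FPKM in SCNT, 4.67 and 11.67 in KDM4E-SCNT, and 6.44, 7.8 and 5.05 in IVF. SCNT lay below both other groups, which overlapped, and the rise was 2.61 (SE 0.47, adjusted p = 0.00213). G002074 (chr2:59615805-59624325, cattle match) read 0.95, 1.7 and 1.85 in SCNT, 6.95 and 14.66 in KDM4E-SCNT, and 9.23, 12.56 and 7.13 in IVF, a rise of 2.18 (SE 0.42, adjusted p = 0.00278). They were taken among loci whose libraries did not overlap. Of the 28 loci called higher, 26 lay outside the ERV PABLB Env and other retroviral families. Loci outside those families were 357 of the 450 tested. Of the 357, 7.28% were called higher, below the 21.6% of all features tested and the 14.7% of the other unannotated loci tested.

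Set against IVF, KDM4E-SCNT embryos had higher levels of many retroviral loci. Over all features tested 6.52% were called, 5.9% higher in KDM4E-SCNT and 0.62% lower. Of the 450 loci tested 38 (8.44%) were higher, 2 (0.444%) lower and 410 not called, and without KDM4E-SCNT replicate 1 the count higher was 10. Over all 605 the libraries lay wholly above IVF at 151 (25%) and wholly below at 41 (6.78%), beside 16.2% and 10.8% of all features. Tested with no filter, 27 of the 605 were higher, where 2.86% of all features were, and 0 lower by limma (28 lower at an unadjusted p under 0.05), where 0.231% of all features were. ERV PABLB Env loci made up 22 of the 38, and other retroviral loci 6. The median over the 100 ERV PABLB Env loci was 0.77, and no locus of that family was called lower by limma (2 at an unadjusted p under 0.05). The count of 22 fell to 4 without KDM4E-SCNT replicate 1 and to 13 when the fit held only the 2 groups compared. No comparison of counts between families was tested.

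The 5 largest rises over IVF were all ERV PABLB Env loci. G001285 (chr16:10237044-10248577) read 0.0, 0.34 and 0.18 FPKM in IVF, 16.9 and 5.7 in KDM4E-SCNT, and 15.76, 13.15 and 42.58 in SCNT, so that KDM4E-SCNT overlapped SCNT and not IVF (3.23, SE 0.53, adjusted p = 0.00281). G004154 rose by 3.52 (SE 0.63, adjusted p = 0.00453), G005043 by 3.3 (SE 0.78, adjusted p = 0.0251), and G000953 by 2.84 (SE 0.43, adjusted p = 0.00164). Without KDM4E-SCNT replicate 1 the calls of G001285, G004154 and G005043 were lost, with adjusted p up to 0.0676, 0.0979 and 0.183 over the alternatives. G005043 was also lost without IVF replicate 1 or 2.

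Both falls against IVF were cattle reverse transcriptase-like loci and each lost its call under some alternatives. G002686 (chr24:24944340-24947104) read 13.2, 40.64 and 3.94 FPKM in IVF, 1.48 and 0.1 in KDM4E-SCNT, and 0.66, 1.59 and 0.53 in SCNT. IVF varied widely yet stayed above the rest (-3.11, SE 0.7, adjusted p = 0.0173), and the call was lost in 5 of 19 alternatives, among them those without IVF replicate 1 and without either KDM4E-SCNT library. G001230 (chr15:67221318-67222578) read 3.01, 3.84 and 4.83 in IVF, 0.83 and 0.81 in KDM4E-SCNT, and 1.95, 1.1 and 1.32 in SCNT (-1.41, SE 0.38, adjusted p = 0.0445). Its call was lost in 13 of 19 alternatives, among them the removal of any 1 of the 8 libraries, with adjusted p up to 0.217.

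Differences of a locus and of its nearest gene were weakly related over all loci, with higher coefficients for ERV PABLB Env. Over the 74 loci within 5 kb of an annotated row, IVF minus SCNT differences of locus and gene correlated at Pearson r = 0.15, and over the 381 within 100 kb at 0.09 (Spearman 0.12 and 0.1). For the other unannotated loci these values were 0.33 over 688 and 0.24 over 2885. For ERV PABLB Env within 100 kb Pearson r was 0.31 and Spearman rho 0.41 over 55 loci, which share 36 genes. For KDM4E-SCNT minus SCNT these were 0.4 and 0.49 over the same 55 loci, and 0.13 and 0.14 over the 381. Each is a description across loci, since loci can share a gene and all share the libraries.

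**Figure D5:**
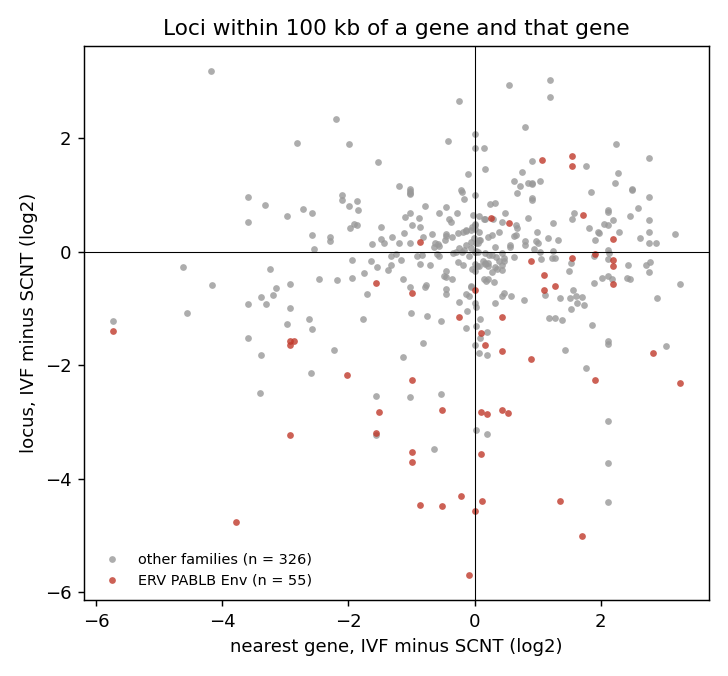
Each point is a locus within 100 kb of an annotated row, with the IVF minus SCNT log2 difference of that row on the horizontal axis and of the locus on the vertical axis, and ERV PABLB Env loci (n = 55) in red. Points spread to both sides of 0 on both axes, and red points lie mostly below 0 whichever way the gene moved.

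Single neighbours went both ways. CCL19, a chemokine gene 3186 bp from G004541, moved with it, at 0.0, 0.0 and 0.68 FPKM in IVF, 17.77, 11.96 and 17.27 in SCNT, and 6.19 and 2.62 in KDM4E-SCNT. UGT1A1, a glucuronosyltransferase gene 9136 bp from G003430, read 0.0, 0.0 and 0.07, then 13.38, 6.19 and 3.52, then 1.57 and 0.16, the order of its neighbour. RNMT, which codes for the mRNA cap methyltransferase and lies 3613 bp from G002712, also moved with it, with an IVF minus SCNT difference of -3.6 (SE 0.36, adjusted p = 6.67e-06). SGTA, a co-chaperone gene 1018 bp from G004154, ran opposite, at 37.85, 20.71 and 27.62 in IVF against 7.96, 7.26 and 8.37 in SCNT (1.71, SE 0.33, adjusted p = 0.000715).

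Of 57 listed genes that silence or restrict such elements 50 were found and 45 tested. Between IVF and SCNT 22 were higher in IVF, 7 lower and 16 not called, where 34.9% of all features tested were higher and 23.6% lower. Their median was 0.86 beside 0.39 for all features tested. Between KDM4E-SCNT and SCNT 15 were higher, 4 lower and 26 not called, beside 21.6% and 11.0% of all features tested. Between KDM4E-SCNT and IVF limma called 0 of 45, where 6.52% of all features were called, with 3 higher and 4 lower at an unadjusted p under 0.05.

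The piRNA pathway, which guards the germ line with small RNAs, had 8 of 15 tested genes higher in IVF than in SCNT and 0 lower by limma (0 lower at an unadjusted p under 0.05), beside 34.9% and 23.6% of all features tested. The 8 oocyte and early embryo markers moved the same way, with 8 of 8 higher in IVF and 8 of 8 higher in KDM4E-SCNT than in SCNT, and their part in the levels of the listed genes was not tested. MAEL, which acts in piRNA production, read 259.79, 208.76 and 232.21 FPKM in IVF, 32.1, 18.39 and 27.44 in SCNT, and 104.12 and 225.84 in KDM4E-SCNT (3.15, SE 0.33, adjusted p = 9.3e-06). SCNT lay below both other groups. TDRD9, a helicase of the pathway, was less abundant, at 5.29, 4.7 and 4.92, then 0.17, 0.16 and 0.19, then 1.98 and 3.23 (2.35, SE 0.33, adjusted p = 7.85e-05). PIWIL1, a piRNA-binding protein gene, read 4.34, 4.6 and 2.35 in IVF, 0.4, 0.0 and 0.0 in SCNT, and 2.35 and 0.65 in KDM4E-SCNT (2.05, SE 0.4, adjusted p = 0.000765).

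Among chromatin silencing genes, SUV39H2, which methylates lysine 9 of histone H3, read 109.29, 107.27 and 82.51 FPKM in IVF, 9.27, 15.58 and 7.13 in SCNT, and 56.54 and 71.76 in KDM4E-SCNT. The groups did not overlap, and IVF minus SCNT was 3.16 (SE 0.32, adjusted p = 7.24e-06). SETDB1, another methylase of this residue that acts with TRIM28, was also higher in IVF (1.45, SE 0.34, adjusted p = 0.00306), as was the maintenance DNA methyltransferase DNMT1 (1.48, SE 0.33, adjusted p = 0.00211). DNA methylation genes as a group had 4 of 5 higher and 1 lower, beside 34.9% and 23.6% of all features tested. The list for lysine 9 methylation, which holds SUV39H2 and not SETDB1, had 3 of 6 higher, 1 lower and 2 not called. Its lower gene, CBX5, read 62.23, 114.79 and 79.13, then 252.48, 299.95 and 252.49, then 151.42 and 145.95 (-1.68, SE 0.28, adjusted p = 0.000243). Summed over this list, SCNT libraries stood highest, with 271, 324 and 268 FPKM. The IVF sums were 193, 236 and 180, and those of KDM4E-SCNT 223 and 230.

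Of the 8 HUSH and KAP1 genes, which bring silencing marks to retroelements, 4 were lower in IVF, 1 higher and 3 not called. Of all features tested 23.6% were lower and 34.9% higher. TRIM28, also called KAP1, read 2.92, 3.94 and 5.42 FPKM in IVF, 24.82, 14.33 and 13.75 in SCNT, and 6.34 and 4.76 in KDM4E-SCNT (-1.85, SE 0.35, adjusted p = 0.000669). ATF7IP, a partner of SETDB1, read 5.98, 7.38 and 13.99, then 48.21, 47.05 and 52.23, then 26.05 and 19.33 (-2.39, SE 0.33, adjusted p = 7.17e-05). For both genes SCNT lay above the other groups. MORC2 was not called (-0.85, SE 0.36, adjusted p = 0.057). Nor were MPHOSPH8 (0.25, SE 0.33, adjusted p = 0.536) and FAM208A (0.28, SE 0.32, adjusted p = 0.473).

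Among restriction and small RNA genes, MOV10, a helicase that restricts retroelements, read 12.46, 11.32 and 13.45 FPKM in IVF, 1.31, 1.19 and 0.8 in SCNT, and 12.97 and 14.44 in KDM4E-SCNT (2.68, SE 0.31, adjusted p = 1.77e-05). DROSHA, the nuclease that begins microRNA processing, read 49.24, 64.88 and 42.63, then 4.8, 7.52 and 9.45, then 22.96 and 46.07 (2.71, SE 0.35, adjusted p = 4.35e-05). SCNT was lowest for both. The part of any of these genes in the levels of the loci was not tested.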

How the data were processed

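RNA of 8 embryo pools was converted to cDNA, tailed with poly(A), amplified and sequenced, per the labels' protocols. The deposited files, 1 per library, hold FPKM to 2 decimals, per the file headers. The tools listed, per the submitters' processing notes and with no role given, are RSEM 1.2.12, Bowtie2 2.2.5, StringTie 1.0.4, HISAT 0.1.6 and bcl2fastq 2.16, with the UMD3.1 build. No read counts were used, so depth and counting error are unknown, and an exact 0 is given as listed.

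Groups came from the labels. Values were fitted as log2(FPKM + 1) in limma 3.58.1 (R 4.3.3, trend and robust moderation) with group means over all 8 libraries. Features with at least 1 FPKM in at least 2 libraries were tested, p-values were two-sided and adjusted by Benjamini-Hochberg over all features tested. For each of 3 contrasts 19 alternatives were tried. Tables were made with pandas 2.3.3, and the fit was tested on simulated data.

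Loci were sorted into 8 families by match title, with values in view. The loci and gene lists were chosen with earlier results of these data known. Named loci are the 6 with the highest mean, the 5 largest called rises and falls per comparison whose groups do not overlap, the most abundant of each description class, the 2 longest and the 4 most like the most abundant. From the silencing list, the 6 genes with the smallest p in IVF minus SCNT and 6 set genes are named. Nearest genes were read from the files' coordinates. No sequences were used here.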

Additional observations from a re-analysis of the deposited data

How the results depend on the processing

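Of 48 values for named loci, 39 kept their direction and their side of the threshold under every alternative run. The difference of G003941 between IVF and SCNT, -0.08 and not called, turned to 0.06 with mitochondrial genes removed, and ran from -0.3 to 0.26 when each library was left out in turn (0.26 without IVF replicate 3, 0.03 without SCNT replicate 1, 0.0 without SCNT replicate 3). That of G005125 turned to -0.09 with quantile normalization. The cause was not tested.

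Counts of called loci moved as follows. Between IVF and SCNT, quantile normalization gave 38 higher in place of 59. Between KDM4E-SCNT and SCNT, the 28 higher became 18 with no filter on low values, 15 with median-ratio scaling and 14 with quantile normalization, and the 42 lower became 76 and 73 with the latter pair. Between KDM4E-SCNT and IVF, fitting only the 2 groups compared gave 22 calls, 22 higher and 0 lower, in place of 40, 38 and 2, and the 2 lower became 1 with a pseudocount of 0.1 or median-ratio scaling and 0 with no filter. For ERV PABLB Env, the 24 lower in KDM4E-SCNT than in SCNT became 14 with a pseudocount of 0.1, and the 22 higher than in IVF became 13 with only the 2 groups compared.

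Leaving out each library in turn gave, between IVF and SCNT, 143 to 187 calls, 37 to 63 higher and 103 to 124 lower. Between KDM4E-SCNT and SCNT it gave 30 to 76 calls, 15 to 34 higher and 13 to 43 lower, and between KDM4E-SCNT and IVF 10 to 44 calls, 10 to 41 higher and 0 to 3 lower. For ERV PABLB Env the ranges were 49 to 54 lower in IVF than in SCNT, 7 to 30 lower in KDM4E-SCNT than in SCNT, and 4 to 28 higher in KDM4E-SCNT than in IVF. Where 1 KDM4E-SCNT library was left out, the lone library was assumed to vary like the other groups.

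The summed FPKM of all 605 loci averaged 2195 in IVF, 2797 in SCNT and 2367 in KDM4E-SCNT. With median-ratio scaling these were 1963, 3414 and 2085, and without G003836 IVF had 1765 and KDM4E-SCNT 2179. The alternatives for ERV PABLB Env alone were added after the data had been seen.

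Whether replicate numbers pair the libraries could not be told. Same-numbered libraries correlated at 0.00649 to 0.123 in their deviations from group means, and differently numbered ones at -0.134 to 0.134. These deviations cancel within each group, so the coefficients depend on one another and cannot decide the question. With the replicate number as a block 186, 62 and 43 loci were called in the 3 comparisons, and between KDM4E-SCNT and IVF 4 were lower in place of 2. Depth is unknown, so it cannot be said which of the loci listed at 0 were below detection.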

Other observations

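Mobile element matches outside the chosen titles were called in both directions. The files hold 114 unannotated loci described as transposase, the enzyme of DNA transposons that move without an RNA step. Of 64 tested, 17 (26.6%) were higher in IVF than in SCNT, 11 (17.2%) lower and 36 not called. Both shares were below those of all features tested, 34.9% and 23.6%. Of the 4447 unannotated loci outside the chosen titles 3164 were tested, and 28.1% of these were higher and 18.6% lower. The transposase shares were close to these values. The median over the 114 was 0.08. A further 11 unannotated loci were described as envelope proteins, with 2 higher (22.2%) and 3 lower (33.3%) of 9 tested.

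Single envelope loci, named after their values were seen, differed widely. G005008 (chrX:58821941-58823979) read 0.0, 0.07 and 0.07 FPKM in IVF, 2.75, 10.19 and 6.53 in SCNT, and 0.0 and 0.34 in KDM4E-SCNT (IVF minus SCNT -2.7, adjusted p = 0.000156). G001255 (chr15:80106455-80115827) read 0.68, 0.3 and 0.54, then 5.02, 2.68 and 6.69, then 5.74 and 5.87, so that the KDM4E-SCNT libraries lay within the SCNT values (-1.89, adjusted p = 0.000748). G004454 (chr8:42283338-42473133), whose best match is the ruminant envelope protein syncytin-rum1, ran opposite, at 6.14, 5.76 and 5.95, then 0.52, 0.7 and 0.91, then 2.56 and 4.47 (2.03, adjusted p = 0.000232).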
